A study of Mus musculus with 19 samples.

Results

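The proteasome is the protease that destroys ubiquitin-tagged proteins, and its subunit genes were followed here in mouse calf muscle after loss of arterial flow, with and without inhibition of the hypoxia-induced microRNA miR-210. Members were the array names that begin with Psma, Psmb, Psmc, Psmd, Psme, Psmf or Psmg followed by a digit, each represented by its brightest probe. The rule found 47 names, of which 41 had a probe detected (detection p-value under 0.05) on at least 3 of 19 arrays and were tested among 15287 names in all. Of the 41, 27 encode constitutive subunits of the core or of its 19S cap, 5 are the immune members Psmb8, Psmb9, Psmb10, Psme1 and Psme2, and 9 are other regulators, assembly factors and 1 name match, Psmc3ip, a meiotic recombination factor that is not a subunit. The names not tested were Psma1, Psma3, Psma6, Psmd3, the testis subunit Psma8 and the thymus subunit Psmb11. Psmg1 stands in the file under an older name and Psmg4 was not found, so neither is a member.

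Gastrocnemius muscle came from CD1 mice 2 months old. Mice received a tail vein injection (12 mg/kg) of a 15-base locked nucleic acid oligomer, either complementary to miR-210 (anti-miR-210) or scrambled, and 2 days later the left femoral artery was dissected. Muscle was taken 3 days after surgery, which gave 4 arrays of anti-miR-210 ischemic muscle, 4 of anti-miR-210 non-ischemic muscle, 4 of scramble ischemic muscle, 4 of scramble non-ischemic muscle and 3 of untreated muscle. The labels do not say whether ischemic and non-ischemic muscles came from the same mice, or whether each array is 1 mouse, so the p-values reflect only how far these samples differ, which may in part be technical. Whole muscle holds fibres, vessels and infiltrating cells, and in such bulk RNA fewer cells of a type and less RNA per cell cannot be told apart.

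In the 26S proteasome, a core of alpha and beta rings cuts proteins, and a 19S cap of ATPases and non-ATPase subunits recognises ubiquitin, unfolds the substrate and feeds it in. Of the beta subunits Psmb5, Psmb6 and Psmb7 carry the active sites. In leukocytes, and in other cells exposed to interferon gamma, newly made cores take up Psmb8, Psmb9 and Psmb10 in their place, which shifts the peptides offered to MHC class I molecules. In skeletal muscle the proteasome is known for the turnover of contractile proteins in wasting.

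Ischemic muscle had higher levels of all 3 immune catalytic subunits and lower levels of 2 of the 3 constitutive ones after either oligonucleotide. By the brightest probe of each, after anti-miR-210 Psmb8 rose 4.77-fold, Psmb9 3.13-fold and Psmb10 2.05-fold, and after scramble 2.73-fold, 2.59-fold and 1.88-fold. Psmb5 was 2.38-fold lower after anti-miR-210 and 1.86-fold lower after scramble, and Psmb7 was 2.06-fold and 2.11-fold lower. Among all 27 constitutive subunits, Psmb5 and Psmb7 included, 4 rose and 7 fell after anti-miR-210, where 26.2% of all 15287 names rose and 24.3% fell, and 5 rose and 7 fell after scramble, where 26.7% of all names rose and 24.5% fell. That split depends on the scaling: with each array scaled by its median, all of the 27 but Psmd13 (0.04) had negative log2 changes after scramble.

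Sequence upstream of the start site is shown for the 2 pairs of subunits that exchange in the core and have a window in the RefSeq table (GRCm38.p6), Psmb8 with Psmb5 and Psmb9 with Psmb6, since the members of a pair moved apart. Each line is the 250 bases before the annotated start, 5′ to 3′ on the gene's strand, with motif matches in capitals.
Psmb8, chr17:34197945-34198194, plus strand: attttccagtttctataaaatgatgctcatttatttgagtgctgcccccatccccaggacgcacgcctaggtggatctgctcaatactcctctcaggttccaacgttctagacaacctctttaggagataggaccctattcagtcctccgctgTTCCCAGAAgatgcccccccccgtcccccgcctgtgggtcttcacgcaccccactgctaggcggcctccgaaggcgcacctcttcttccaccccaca
Psmb5, chr14:54617996-54618245, minus strand: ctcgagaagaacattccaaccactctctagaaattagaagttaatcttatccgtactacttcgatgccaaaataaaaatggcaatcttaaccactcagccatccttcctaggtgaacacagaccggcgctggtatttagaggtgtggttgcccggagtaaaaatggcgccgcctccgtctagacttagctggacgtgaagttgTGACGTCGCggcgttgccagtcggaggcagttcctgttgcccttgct
Psmb9, chr17:34187331-34187580, minus strand: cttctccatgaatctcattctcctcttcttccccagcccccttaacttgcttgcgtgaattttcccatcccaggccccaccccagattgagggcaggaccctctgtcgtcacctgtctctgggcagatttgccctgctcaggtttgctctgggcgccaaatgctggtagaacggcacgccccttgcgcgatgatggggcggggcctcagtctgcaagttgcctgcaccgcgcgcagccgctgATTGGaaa
Psmb6, chr11:70525107-70525356, plus strand: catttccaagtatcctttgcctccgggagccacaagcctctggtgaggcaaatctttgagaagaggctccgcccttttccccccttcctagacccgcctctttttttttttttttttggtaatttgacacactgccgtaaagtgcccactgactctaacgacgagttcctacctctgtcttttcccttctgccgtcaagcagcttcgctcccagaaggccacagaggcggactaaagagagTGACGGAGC

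Both strands were searched for 4 short motifs. The antioxidant response core TGACNNNGC, bound by Nfe2l1 and Nfe2l2, stood in the windows of both constitutive subunits, at -47 to -39 for Psmb5 and at -9 to -1 for Psmb6, and in 10.16% of all 32851 windows in the table. The STAT core TTCNNNGAA stood in the Psmb8 window, at -97 to -89, and in 7.02% of all windows. A CCAAT box, bound by NF-Y and read on the opposite strand, stood in the Psmb9 window at -8 to -4, and in 33.85% of all windows. A pair of GAAA runs 2 bases apart, the core of the interferon-stimulated response element, was in none of the 4 windows, and in 2.98% of all windows. Among the 35 tested members with a window, the STAT core was found for Psmb8 alone and the antioxidant core for Psmb5, Psmb6, Psmc6, Psmd12 and Psmd9. The core of the interferon-stimulated response element was found for Psmb3, Psmd4 and Psmd9, and for 0 of the 5 immune members. Of the 37 windows of these members, 2.70% held the STAT core, 13.51% the antioxidant core, 8.11% the interferon core and 29.73% the CCAAT box. A match is a string of letters and not a shown binding site. On chromosome 17, in the MHC, the protein-coding genes Psmb9, Tap1, Psmb8 and Tap2 follow each other with none between.

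Levels below are normalized log2 intensities of 1 probe, so they compare arrays and not genes. A name is called when the limma test across all 15287 names gives an adjusted p under 0.05, and log2 changes carry the standard error of that fit, with 4 arrays per group.

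Psmb8, the immune counterpart of the chymotrypsin-like subunit Psmb5, had levels of 8.16, 7.63, 8.04 and 6.43 in anti-miR-210 ischemic muscle, against 5.35, 5.23, 5.41 and 5.27 in non-ischemic muscle with anti-miR-210. It had 7.31, 7.35, 6.38 and 6.92 in scramble ischemic muscle, against 5.96, 5.56, 5.28 and 5.36 in scramble non-ischemic muscle. Every ischemic array stood above every non-ischemic one with the same oligonucleotide, and the fourth anti-miR-210 ischemic array was well below its 3 fellows. The log2 change was 2.25 ± 0.29 after anti-miR-210 (adjusted p = 2.76e-06) and 1.45 ± 0.29 after scramble (adjusted p = 0.000329). A second, dimmer probe for Psmb8 gave 0.67 and 0.25, and with the mean of both probes the changes were 1.46 and 0.85, both called.

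Psmb9, which takes the place of the caspase-like Psmb6, had 6.90, 7.24, 6.92 and 6.85 in anti-miR-210 ischemic muscle, against 5.86, 5.18, 4.87 and 5.41 in non-ischemic muscle with anti-miR-210. It had 6.54, 6.78, 7.25 and 6.71 in scramble ischemic muscle, against 5.81, 5.23, 5.62 and 5.13 in scramble non-ischemic muscle. The groups did not overlap in either pair. The log2 change was 1.65 ± 0.21 after anti-miR-210 (adjusted p = 2.12e-06) and 1.38 ± 0.21 after scramble (adjusted p = 1.68e-05).

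Psmb10, the counterpart of the trypsin-like Psmb7, had 8.51, 9.28, 9.42 and 9.83 in anti-miR-210 ischemic muscle, against 8.26, 8.15, 8.19 and 8.30 in non-ischemic muscle with anti-miR-210. It had 9.03, 9.14, 9.37 and 8.94 in scramble ischemic muscle, against 8.20, 8.56, 8.14 and 7.93 in scramble non-ischemic muscle. Again no ischemic array reached down to its non-ischemic group, and the second probe for the gene was also higher. The log2 change was 1.03 ± 0.22 after anti-miR-210 (adjusted p = 0.000516) and 0.91 ± 0.22 after scramble (adjusted p = 0.00151). With each array scaled by its median in place of quantile normalization, the change after scramble was 0.34 and was not called (adjusted p = 0.239).

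The other immune members are the subunits of the PA28 activator ring, which opens the core and is also induced by interferon gamma. Psme1 had 9.39, 9.37, 9.48 and 9.48 in anti-miR-210 ischemic muscle, against 9.35, 9.01, 8.98 and 9.34 in non-ischemic muscle with anti-miR-210. It had 9.84, 9.49, 9.00 and 9.72 in scramble ischemic muscle, against 9.22, 9.16, 9.02 and 9.02 in scramble non-ischemic muscle. The third scramble ischemic array lay below its whole non-ischemic group and the other three above it. Psme1 was called after scramble (log2 change 0.41 ± 0.15, adjusted p = 0.0336) and not after anti-miR-210 (0.26 ± 0.15, adjusted p = 0.181). Its other probe gave -0.40 after scramble, and with median scaling the change after scramble was -0.25 (adjusted p = 0.267), so its direction is not settled. The call was also lost without scramble ischemic replicate 1 (adjusted p = 0.127), 2 (0.0534) or 4 (0.101), or without scramble non-ischemic replicate 3 (0.0782) or 4 (0.0773).

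Psme2, its partner in the ring, was not called. It had 6.42, 6.84, 7.01 and 6.27 in anti-miR-210 ischemic muscle, against 7.10, 6.70, 7.42 and 7.11 in non-ischemic muscle with anti-miR-210, and 6.96, 6.29, 6.52 and 6.26 in scramble ischemic muscle, against 6.73, 6.61, 6.38 and 7.42 in scramble non-ischemic muscle. The groups overlapped, with log2 changes of -0.45 ± 0.22 after anti-miR-210 and -0.28 ± 0.22 after scramble. Psme2 has a near-identical copy in the mouse genome that its probe may also read, so its values are uncertain.

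The 3 constitutive catalytic subunits went the other way or were not called. Psmb5 had 5.76, 5.96, 6.60 and 6.45 in anti-miR-210 ischemic muscle, against 7.93, 7.05, 7.58 and 7.21 in non-ischemic muscle with anti-miR-210. It had 6.64, 6.56, 5.68 and 5.60 in scramble ischemic muscle, against 6.95, 7.00, 7.00 and 7.10 in scramble non-ischemic muscle. All ischemic arrays lay below their non-ischemic group, with log2 changes of -1.25 ± 0.25 after anti-miR-210 (adjusted p = 0.000398) and -0.90 ± 0.25 after scramble (adjusted p = 0.00614).

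Psmb7 had 10.94, 11.25, 11.74 and 10.50 in anti-miR-210 ischemic muscle, against 12.34, 12.19, 12.12 and 11.95 in non-ischemic muscle with anti-miR-210. It had 11.43, 11.14, 10.13 and 10.57 in scramble ischemic muscle, against 11.75, 11.87, 11.81 and 12.15 in scramble non-ischemic muscle. The groups did not overlap, and all 4 probes for the gene were lower in both responses. The log2 change was -1.04 ± 0.25 after anti-miR-210 (adjusted p = 0.00175) and -1.08 ± 0.25 after scramble (adjusted p = 0.00126).

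Psmb6 had 11.08, 11.05, 11.47 and 10.98 in anti-miR-210 ischemic muscle, against 11.34, 11.41, 11.79 and 11.55 in non-ischemic muscle with anti-miR-210, and 11.67, 10.79, 10.74 and 10.67 in scramble ischemic muscle, against 11.01, 11.09, 11.15 and 11.41 in scramble non-ischemic muscle. The groups overlapped and Psmb6 was not called, with log2 changes of -0.38 ± 0.19 after anti-miR-210 (adjusted p = 0.116) and -0.20 ± 0.19 after scramble (adjusted p = 0.425). Scramble ischemic replicate 1 stood above every scramble non-ischemic array; without it the change was -0.43 and was called (adjusted p = 0.0286).

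**Figure D1:**
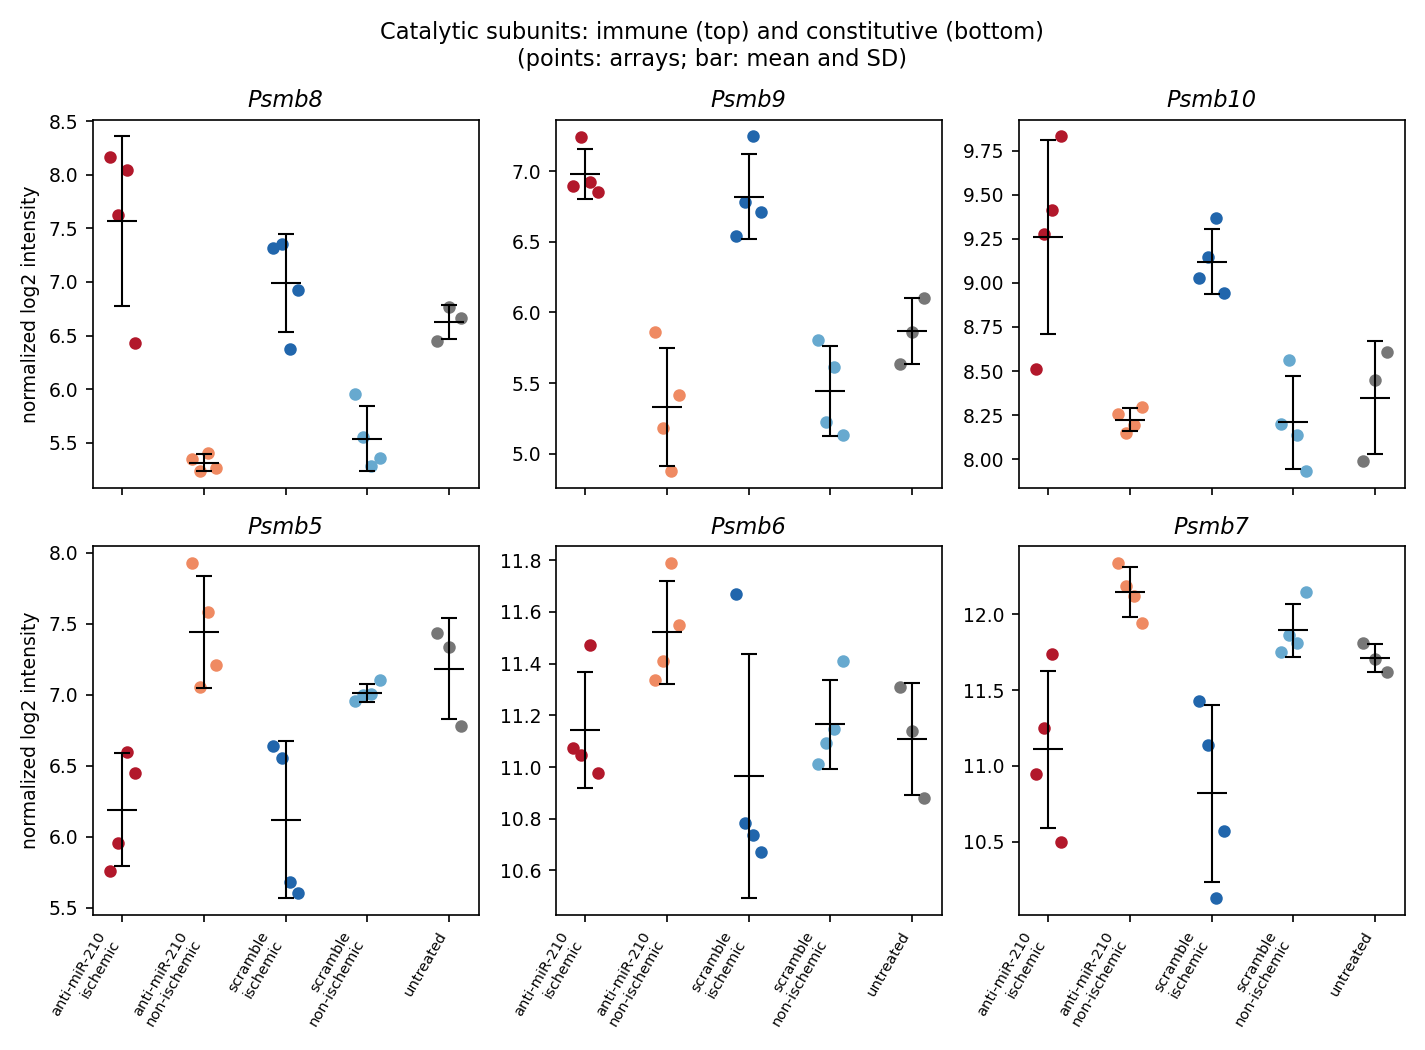
Normalized log2 intensity (vertical axis, a separate range in each panel) of the 3 immune catalytic subunits above and the constitutive counterpart of each below, by group. Points are arrays, bars the mean and SD; ischemic arrays stand above their non-ischemic group for Psmb8, Psmb9 and Psmb10 and below it for Psmb5 and Psmb7, while Psmb6 overlaps.

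For each exchanged pair the log2 ratio of immune to constitutive subunit was taken on each array, which removes the scale of the array but leaves the arbitrary level of each probe, so only differences between groups are read. The Psmb8 to Psmb5 ratio was 3.51 higher in anti-miR-210 ischemic than in anti-miR-210 non-ischemic muscle (SD 1.01 and 0.34, n = 4 each) and 2.35 higher in scramble ischemic than in scramble non-ischemic muscle (SD 0.30 and 0.35). The Psmb9 to Psmb6 ratio was higher by 2.02 (SD 0.31 and 0.59) and 1.57 (SD 0.70 and 0.46), and the Psmb10 to Psmb7 ratio by 2.07 (SD 0.81 and 0.20) and 1.99 (SD 0.70 and 0.39). In all 6 comparisons the 4 ischemic arrays stood above the 4 non-ischemic ones, so the exact two-sided permutation p was 0.0286 each time, the smallest that 4 against 4 arrays can give. After Benjamini-Hochberg adjustment over the 12 ratio tests the adjusted p was 0.049 for these exact tests. That value rests on a seventh ratio at the same p, described with the oligonucleotide comparisons. It was 0.0571 or more for all 6 with cyclic loess normalization, without background correction or in the authors' values. Psmb9 to Psmb6 after scramble was the ratio above 0.0571 there, with 0.098, 0.147 and 0.098 in that order.

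**Figure D2:**
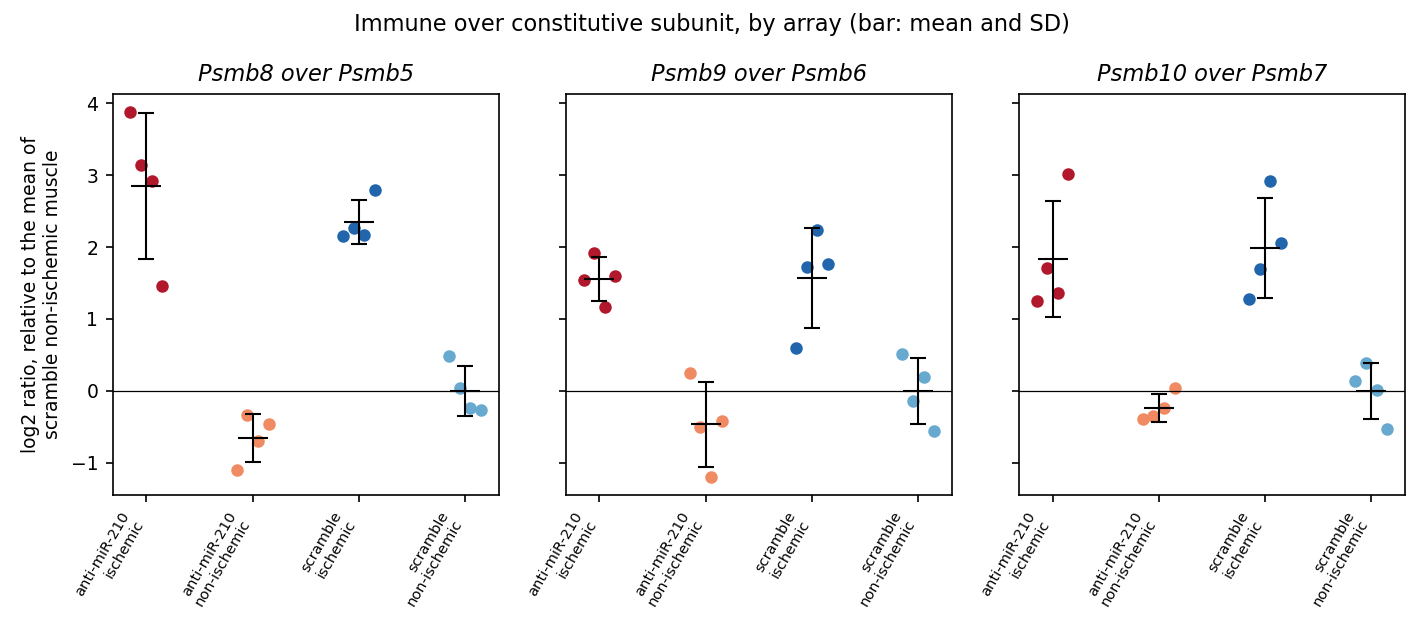
Log2 ratio of immune to constitutive subunit on each array (vertical axis) for the 4 oligonucleotide groups, relative to the mean of scramble non-ischemic muscle. Points are arrays, bars the mean and SD; every ischemic point lies above the non-ischemic points with the same oligonucleotide.

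Over all 41 tested members, 10 (24.4%) were called higher and 8 (19.5%) lower in ischemic muscle after anti-miR-210, and 12 (29.3%) higher and 8 (19.5%) lower after scramble, shares close to those of all names. Of these members 9 rose in both responses, 6 fell in both, 0 were called in opposite directions and 18 were called in neither. The same counts were not taken over all names, so they are not read as a trait of the members. The 2 responses share no arrays, but all arrays were normalized together and share 1 estimate of the spread per name. The median log2 change of the 27 constitutive subunits was 0.02 after anti-miR-210 and -0.23 after scramble, and that of the 5 immune members 1.03 and 0.91, against a median of 0.01 over all names in each response. Array scaling moved these counts. Median scaling put the median of all names at -0.39 after anti-miR-210 and 0.04 after scramble. It called 6 members higher and 18 lower after anti-miR-210, and 2 higher and 22 lower after scramble. Of all 15287 names it called 3163 higher and 6842 lower after anti-miR-210, and 2993 higher and 4206 lower after scramble.

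**Figure D3:**
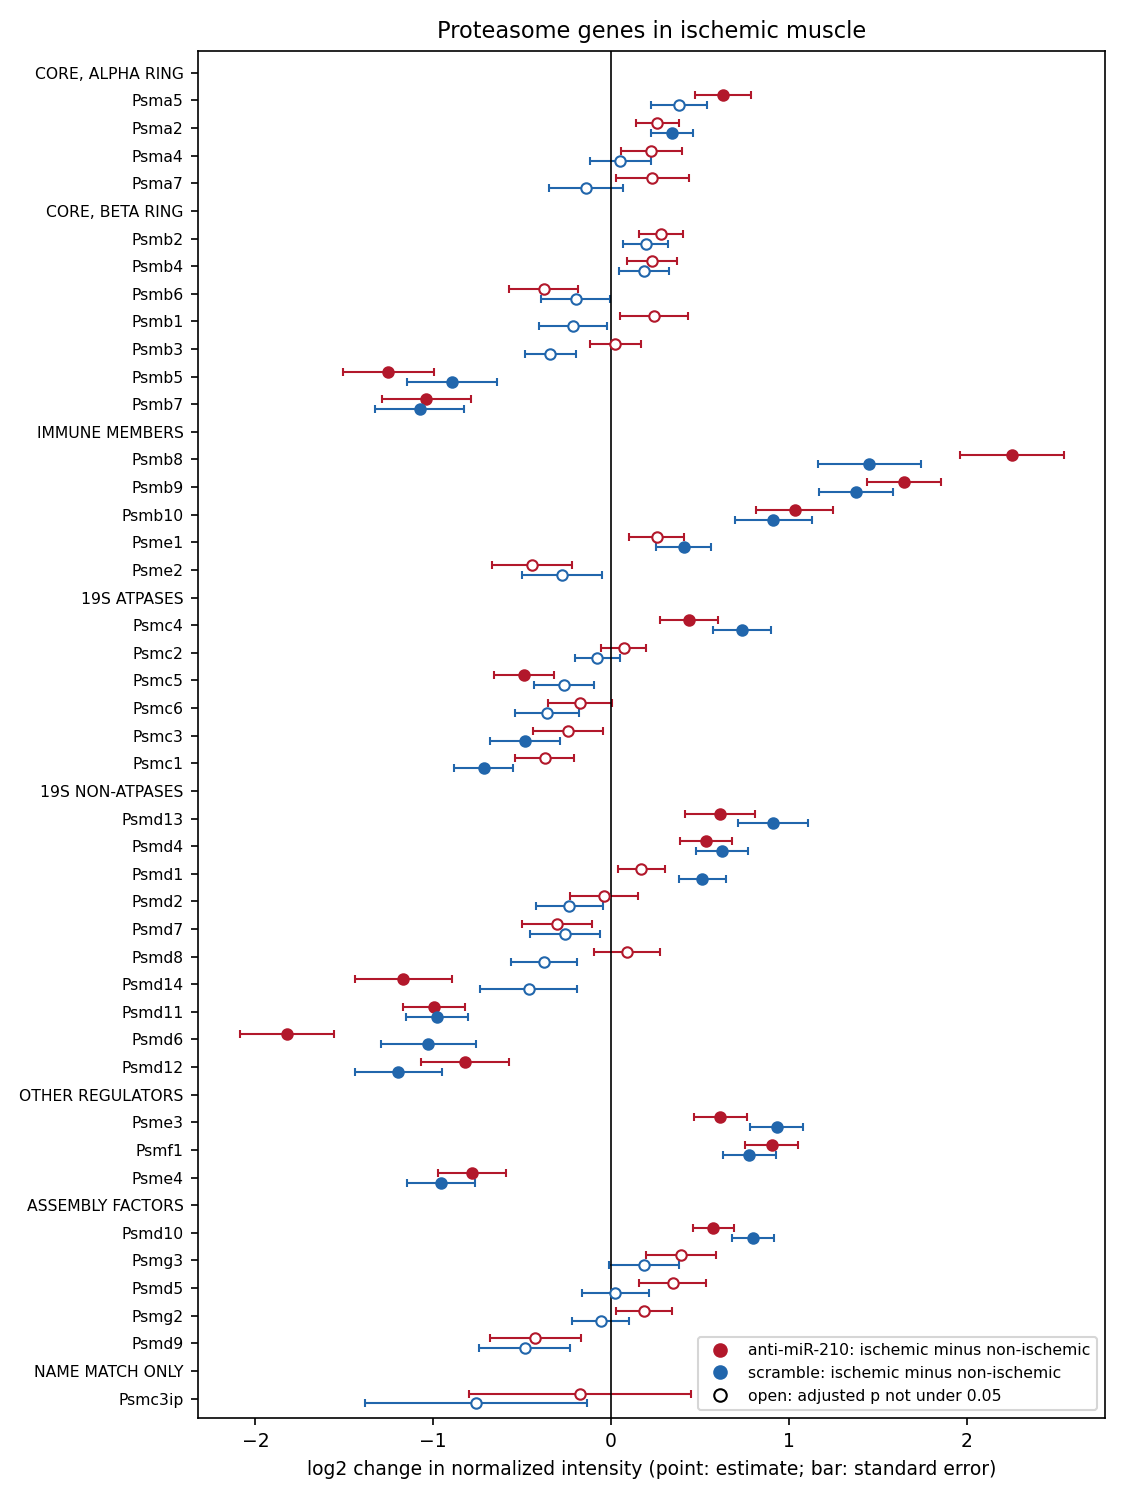
Log2 change in ischemic against non-ischemic muscle (horizontal axis; point and standard error) for the 41 tested members by role, after anti-miR-210 and after scramble; filled points are called, open points are not. Psmb8 and Psmb9 stand furthest to the right. Psmb10 comes next after anti-miR-210, but after scramble Psme3 (0.93) lies beyond Psmb10 (0.91). In these quantile-normalized values the beta ring, the ATPases and the non-ATPases hold members on both sides of 0 in each response. The alpha ring does so after scramble alone, and its 4 tested members lie above 0 after anti-miR-210. With median scaling the values of constitutive subunits were nearly all negative after scramble.

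In the alpha ring, the outer gate of the core, 4 of 7 members were measured and none was called lower, although with median scaling all 4 had negative changes after scramble. Psma5 had 11.97, 11.76, 12.00 and 11.77 in anti-miR-210 ischemic muscle, against 11.31, 11.17, 11.46 and 11.04 in non-ischemic muscle with anti-miR-210, and 12.02, 12.03, 11.46 and 11.50 in scramble ischemic muscle, against 11.49, 11.52, 11.43 and 11.05 in scramble non-ischemic muscle. The groups were apart after anti-miR-210, where Psma5 rose (log2 change 0.63 ± 0.16, adjusted p = 0.00246), and overlapped after scramble (0.38 ± 0.16, adjusted p = 0.0507). With median scaling the changes were 0.02 and -0.52, while the median of all names was -0.39 after anti-miR-210 and 0.04 after scramble. Psma2 was called after scramble alone (0.34 ± 0.12, adjusted p = 0.0224) with 0.26 ± 0.12 after anti-miR-210 (adjusted p = 0.0801), and median scaling turned it to -0.61 after scramble. That call was lost without scramble ischemic replicate 1 or 2, or scramble non-ischemic replicate 1 or 3 (adjusted p up to 0.0748). Psma7 had 9.95, 10.73, 11.05 and 10.39 in anti-miR-210 ischemic muscle, against 10.43, 10.04, 10.52 and 10.22 in non-ischemic muscle with anti-miR-210, and 10.50, 10.64, 9.95 and 9.99 in scramble ischemic muscle, against 10.33, 10.66, 10.30 and 10.36 in scramble non-ischemic muscle. It overlapped in both pairs and was not called, nor was Psma4 (log2 changes 0.22 and 0.05).

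In the beta ring all 7 constitutive members were measured, and besides Psmb5 and Psmb7 none was called in either response with quantile normalization. Psmb2, a non-catalytic subunit, had 11.12, 11.28, 11.48 and 11.14 in anti-miR-210 ischemic muscle, against 10.91, 10.76, 11.23 and 10.99 in non-ischemic muscle with anti-miR-210, and 11.24, 11.17, 10.99 and 11.13 in scramble ischemic muscle, against 10.88, 11.02, 11.02 and 10.83 in scramble non-ischemic muscle. These groups overlapped. The log2 changes of the non-catalytic Psmb1, Psmb2, Psmb3 and Psmb4 lay between 0.02 and 0.28 after anti-miR-210 and between -0.34 and 0.19 after scramble. Psmb3 was called lower after scramble without background correction (-0.33, adjusted p = 0.0318), in the authors' values (-0.33, adjusted p = 0.0318) and without scramble ischemic replicate 1 or 4 or scramble non-ischemic replicate 2. It was also called in the fit on the mean of each name's probes (-0.34, adjusted p = 0.0462). Psmb3 has only 1 kept probe, so its own change is the same there. With median scaling all 7 were called lower after scramble, where 4206 of all 15287 names were. The falls were thus not limited to the active-site subunits under every setting.

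The 6 ATPases, Psmc1 to Psmc6, form the ring that unfolds substrates. Psmc4 had 11.05, 11.04, 11.02 and 11.53 in anti-miR-210 ischemic muscle, against 10.44, 10.68, 11.04 and 10.73 in non-ischemic muscle with anti-miR-210, and 11.36, 11.55, 11.64 and 11.12 in scramble ischemic muscle, against 10.70, 10.72, 10.68 and 10.63 in scramble non-ischemic muscle. It rose in both, by 0.44 ± 0.16 after anti-miR-210 (adjusted p = 0.0308) and 0.73 ± 0.16 after scramble (adjusted p = 0.000862), but its second probe was lower in both (-0.20 and -0.47), and median scaling gave -0.12 and -0.11. The call after anti-miR-210 was lost without anti-miR-210 ischemic replicate 4 (adjusted p = 0.123) and without anti-miR-210 non-ischemic replicate 1 (0.103), 2 (0.0625) or 4 (0.0533).

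Psmc1 had 8.58, 9.12, 9.09 and 8.76 in anti-miR-210 ischemic muscle, against 8.98, 9.36, 9.48 and 9.22 in non-ischemic muscle with anti-miR-210, and 8.60, 8.74, 8.14 and 8.27 in scramble ischemic muscle, against 8.99, 9.20, 9.08 and 9.36 in scramble non-ischemic muscle. It fell after scramble, where the groups were apart (-0.72 ± 0.17, adjusted p = 0.0013), and was not called after anti-miR-210 (-0.37 ± 0.17, adjusted p = 0.0709). Psmc3 was called lower after scramble at -0.48 ± 0.20 (adjusted p = 0.0484), a call lost under 11 of 18 alternatives, among them leaving out scramble ischemic replicate 2, 3 or 4 or scramble non-ischemic replicate 1, 2 or 4 (adjusted p up to 0.161 in these). Psmc5 was called lower after anti-miR-210 at -0.49 ± 0.17 (adjusted p = 0.0204), and was not called without anti-miR-210 ischemic replicate 1 (adjusted p = 0.0848) or 2 (0.0795) or anti-miR-210 non-ischemic replicate 2 (0.0587). Psmc2 was called in neither response by its brightest probe (0.07 after anti-miR-210 and -0.08 after scramble), but a second, dimmer probe gave -1.38 and -0.85. With the mean of its probes Psmc2 was called lower after anti-miR-210 (-0.65, adjusted p = 0.000422) and after scramble (-0.465, adjusted p = 0.00667). Psmc6 was undetected on all 4 scramble ischemic arrays and detected on 2 of the 4 scramble non-ischemic arrays, so the size of its change is not known. Its mean measured level was 4.28 in scramble ischemic and 4.64 in scramble non-ischemic muscle, and it was not called (adjusted p = 0.106).

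Of the 11 non-ATPase subunits 10 were tested, and they split. The ubiquitin receptor Psmd4 rose by 0.53 ± 0.15 after anti-miR-210 (adjusted p = 0.005) and by 0.62 ± 0.15 after scramble (adjusted p = 0.00148). Psmd13, a lid subunit, had 11.37, 11.22, 11.57 and 12.08 in anti-miR-210 ischemic muscle, against 11.03, 10.96, 10.99 and 10.81 in non-ischemic muscle with anti-miR-210, and 11.72, 11.75, 12.60 and 11.70 in scramble ischemic muscle, against 10.93, 10.85, 11.34 and 11.01 in scramble non-ischemic muscle. The groups were apart in both pairs, and Psmd13 rose by 0.61 ± 0.20 (adjusted p = 0.0149) and 0.91 ± 0.20 (adjusted p = 0.000734). The rises of Psmd4 and Psmd13 depend on the scaling: with median scaling the changes after anti-miR-210 and after scramble were -0.16 and -0.32 for Psmd4, and 0.00236 and 0.04 for Psmd13. The median of all names with that scaling was -0.39 after anti-miR-210 and 0.04 after scramble. The call for Psmd13 after anti-miR-210 was also lost without anti-miR-210 ischemic replicate 4 (adjusted p = 0.0683). Psmd1, the large scaffold of the base, was called higher after scramble alone (0.51 ± 0.13, adjusted p = 0.00305), while its 3 probes ran between -0.81 and 0.51.

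The non-ATPase members that fell belong to the lid. Psmd12 had 8.79, 9.22, 9.89 and 8.89 in anti-miR-210 ischemic muscle, against 10.02, 9.85, 10.16 and 10.04 in non-ischemic muscle with anti-miR-210, and 9.29, 9.26, 8.27 and 8.20 in scramble ischemic muscle, against 9.99, 9.77, 9.93 and 10.12 in scramble non-ischemic muscle. It fell by 0.82 ± 0.25 after anti-miR-210 (adjusted p = 0.00911) and by 1.20 ± 0.25 after scramble (adjusted p = 0.00043), with 1 anti-miR-210 ischemic array inside the non-ischemic range. Psmd11 fell by 1.00 ± 0.17 (adjusted p = 8.71e-05) and 0.98 ± 0.17 (adjusted p = 0.000101), and Psmd6 by 1.82 ± 0.27 (adjusted p = 1.17e-05) and 1.03 ± 0.27 (adjusted p = 0.00308), each with no overlap between groups. For Psmd6, Psmd11 and Psmd12 all probes were lower in both responses. Psmd14, the deubiquitinase of the lid, fell after anti-miR-210 (-1.17 ± 0.27, adjusted p = 0.00135) and was not called after scramble (-0.46 ± 0.27, adjusted p = 0.17). The scaffold Psmd2 and the lid subunits Psmd7 and Psmd8 were called in neither response. For Psmd7 the 3 probes disagreed widely, between -0.99 and 0.40 after anti-miR-210 and between -1.51 and 1.00 after scramble.

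The alternative regulators of the core were all called in both responses. Psme3, the nuclear PA28 gamma ring, had 9.09, 8.78, 8.84 and 9.38 in anti-miR-210 ischemic muscle, against 8.64, 8.25, 8.30 and 8.43 in non-ischemic muscle with anti-miR-210, and 9.18, 9.03, 8.80 and 9.34 in scramble ischemic muscle, against 8.12, 8.12, 8.37 and 8.01 in scramble non-ischemic muscle. It rose by 0.61 ± 0.15 (adjusted p = 0.00208) and 0.93 ± 0.15 (adjusted p = 3.8e-05), with the groups apart. Psmf1, known as a proteasome inhibitor in vitro, rose by 0.90 ± 0.15 (adjusted p = 4.8e-05) and 0.78 ± 0.15 (adjusted p = 0.000217). With median scaling both kept a positive change after scramble but were not called there (Psme3 0.36, Psmf1 0.23). A second, dim probe for Psmf1 gave 0.10 after anti-miR-210 and -0.11 after scramble.

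Psme4, the PA200 cap, had 11.07, 10.12, 10.69 and 10.07 in anti-miR-210 ischemic muscle, against 11.11, 11.20, 11.34 and 11.44 in non-ischemic muscle with anti-miR-210, and 10.47, 10.73, 10.69 and 10.32 in scramble ischemic muscle, against 11.42, 11.42, 11.87 and 11.32 in scramble non-ischemic muscle. It fell in both, by 0.78 ± 0.19 after anti-miR-210 (adjusted p = 0.00204) and 0.95 ± 0.19 after scramble (adjusted p = 0.000338), with no overlap. Psme4, Psmd11, Psmb8 and Psmb9 were the 4 members whose calls held under all 18 alternatives in both responses.

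Of the 5 measured assembly factors only Psmd10 was called by its brightest probe. Psmd10 (gankyrin), a chaperone of the ATPase ring, had 9.09, 8.98, 8.70 and 9.16 in anti-miR-210 ischemic muscle, against 8.35, 8.50, 8.48 and 8.31 in non-ischemic muscle with anti-miR-210, and 9.11, 8.94, 9.13 and 9.18 in scramble ischemic muscle, against 8.23, 8.26, 8.39 and 8.29 in scramble non-ischemic muscle. The groups were apart by this probe, with rises of 0.57 ± 0.12 (adjusted p = 0.00039) and 0.80 ± 0.12 (adjusted p = 1.18e-05), but the gene's 3 probes ran between -0.19 and 0.57 and between -0.71 and 0.80, so its direction is not settled. Psmd9, another ATPase chaperone, had 5.13, 4.73, 4.70 and 4.48 in anti-miR-210 ischemic muscle, against 4.63, 5.70, 5.32 and 5.10 in non-ischemic muscle with anti-miR-210, and 4.62, 4.70, 4.17 and 5.17 in scramble ischemic muscle, against 4.62, 5.30, 4.87 and 5.81 in scramble non-ischemic muscle. These values lie near the floor of detection, between 4.40 and 4.65 over arrays, and overlap. Psmd5, Psmg2 and Psmg3 were not called by their brightest probes. Their changes were 0.35, 0.18 and 0.39 after anti-miR-210 and 0.02, -0.06 and 0.18 after scramble. For Psmg2 the other probes gave -1.25 and -0.94 after anti-miR-210 and -1.27 and -0.56 after scramble. With the mean of its probes Psmg2 was called lower in both responses (-0.67, adjusted p = 0.000486, and -0.63, adjusted p = 0.000828). The name match Psmc3ip was not called (-0.17 ± 0.62 and -0.76 ± 0.62).

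Genes that work beside the proteasome were taken from lists by function. Of 8 measured genes of MHC class I peptide loading, 6 rose in each response and 0 fell, where 26.2% of all names rose and 24.3% fell after anti-miR-210 and 26.7% rose and 24.5% fell after scramble. Pdia3, a chaperone of the loading complex, rose by 2.70 after anti-miR-210 and 1.84 after scramble, Tap2, a chain of the peptide transporter, by 1.15 and 1.05, H2-K1, a class I heavy chain, by 1.76 and 1.68, and B2m, the light chain, by 1.88 and 1.15. A second, dimmer H2-K1 probe gave 0.77 and -0.16. Of 9 genes of interferon signalling and class I transactivation, 6 rose and 2 fell after anti-miR-210, and 4 rose and 2 fell after scramble; the 22.2% that fell is close to the share of all names in each response. Nlrc5, the transactivator of class I genes, rose by 1.63 and 1.69, Irf1 by 2.01 and 1.41, and Irf8 by 1.43 and 1.28, both transcription factors of the interferon response. Ifngr2, a chain of the interferon gamma receptor, was called higher after scramble (2.37) and not after anti-miR-210 (0.73, adjusted p = 0.11), but its other 2 probes were lower in both responses (-0.81 and -0.23 after anti-miR-210, -0.85 and -0.32 after scramble) and it was not called with the mean of its probes, so its direction is not settled. These 2 lists kept 5 and 4 risers after scramble, and 6 and 6 after anti-miR-210, with median scaling. That setting called 2993 of all 15287 names higher after scramble and 3163 after anti-miR-210.

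Genes of ubiquitin supply and delivery were called in both directions. Of 14 measured genes of ubiquitin supply, shuttling and the p97 segregase, 2 rose and 6 fell after anti-miR-210, and 2 rose and 4 fell after scramble. Ufd1, a p97 cofactor, fell by 1.13 after anti-miR-210 and 1.54 after scramble, and Ubqln4, a shuttle that carries ubiquitinated proteins to the cap, by 1.17 and 0.63. Uba1, the main ubiquitin-activating enzyme, rose by 0.36 and 0.46, and Vcp, p97 itself, by 0.50 and 0.58. The 28.6% that fell after scramble is near the 24.5% of all names, and 42.9% fell after anti-miR-210, against 24.3% of all names. The counts after scramble moved with the setting: 0 rose and 11 fell with median scaling, 3 rose and 2 fell with cyclic loess, and 0 rose and 1 fell with array brightness as a covariate. After anti-miR-210, 0 rose and 9 fell with median scaling and 3 rose and 6 fell with cyclic loess. Of all 15287 names, 4206 fell after scramble with median scaling, 3290 with cyclic loess and 2541 with brightness as a covariate. After anti-miR-210, 6842 of all names fell with median scaling and 3786 with cyclic loess.

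Of 7 measured proteasome genes with other names, 1 rose and 5 fell after anti-miR-210, and 0 rose and 3 fell after scramble, where the shares of all names that fell were 24.3% and 24.5%. With median scaling 0 rose and 6 fell after anti-miR-210, and 0 rose and 5 fell after scramble. With brightness as a covariate 2 fell after scramble. Of all 15287 names, median scaling called 6842 lower after anti-miR-210 and 4206 after scramble, and the brightness covariate 2541 after scramble. Ecpas, an adaptor that tethers the cap to the core, fell by 1.67 after anti-miR-210 and 1.43 after scramble, the ubiquitin receptor Adrm1 by 0.60 and 0.79, and the ligase Ube3c by 0.69 and 0.65. Pomp, the maturation factor of new cores, rose after anti-miR-210 (0.45, adjusted p = 0.00867) and was not called after scramble (0.19, adjusted p = 0.266); median scaling removed the first call and called Pomp lower after scramble, where cyclic loess called it higher, so its direction depends on the scaling. Of 6 measured regulators of proteasome gene transcription, Nfe2l1, which restores proteasome genes when activity drops, fell after anti-miR-210 (-0.58, adjusted p = 0.00598) and was not called after scramble (-0.33, adjusted p = 0.106). Nfyb, a subunit of the CCAAT-binding factor, fell after scramble (-0.89, adjusted p = 0.00237) and was not called after anti-miR-210 (-0.49, adjusted p = 0.0787).

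**Figure D4:**
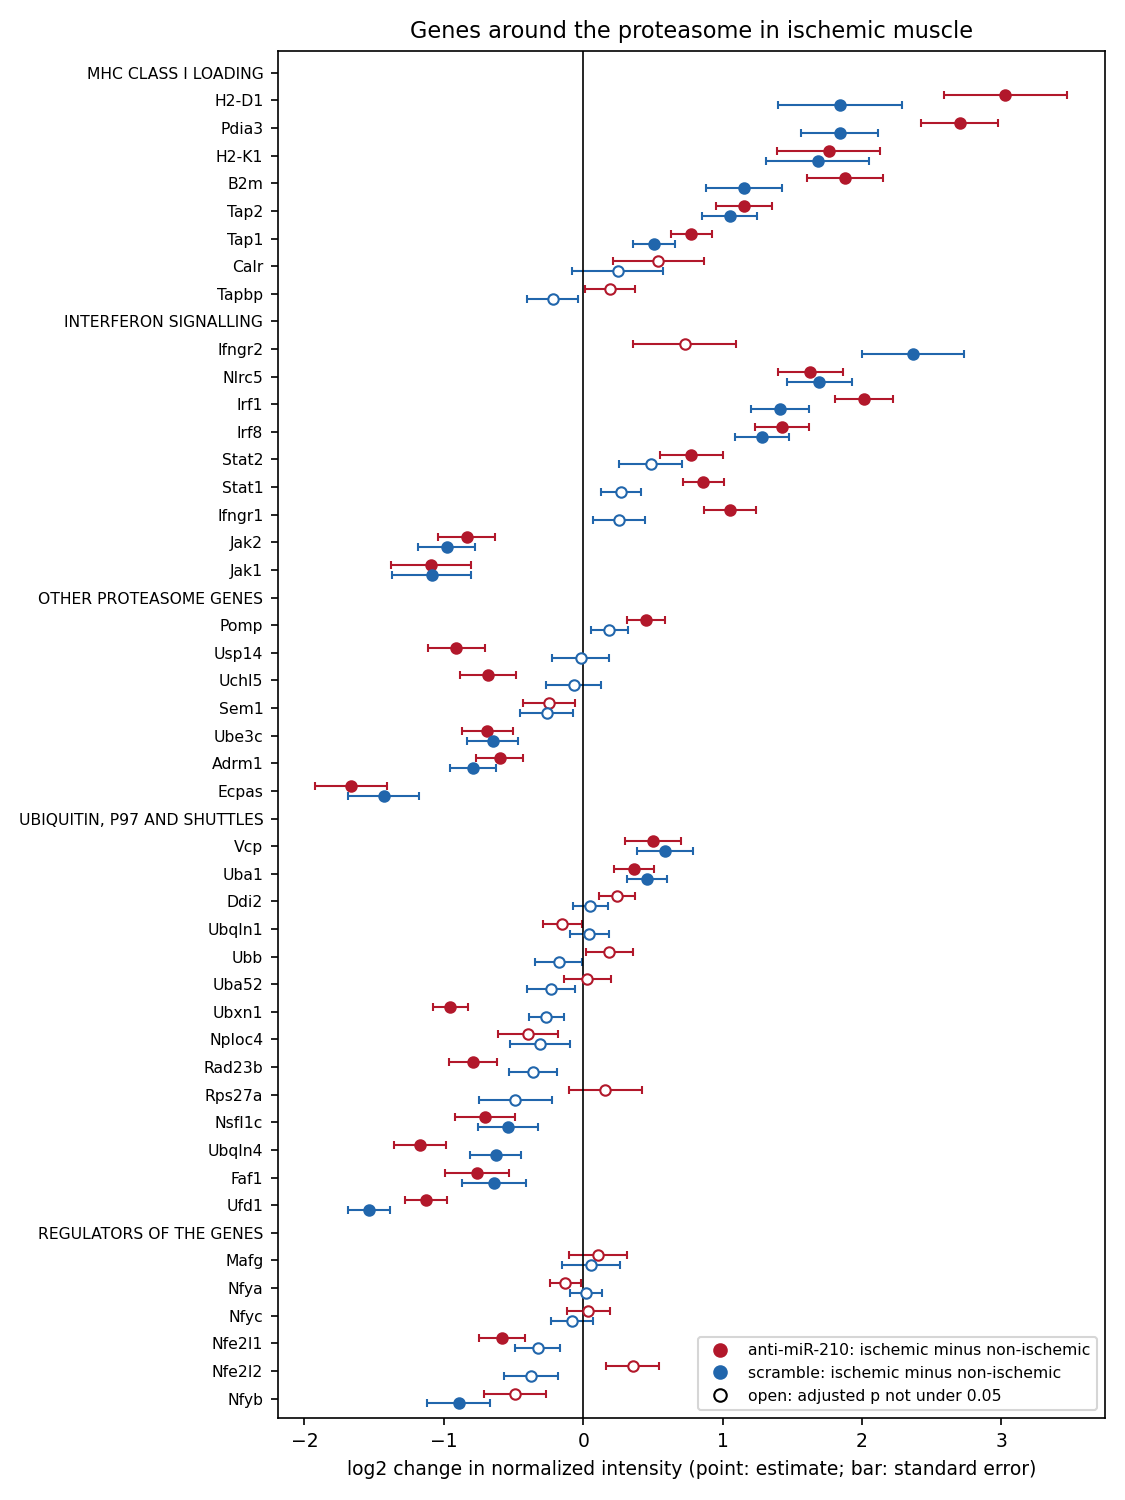
Log2 change in ischemic against non-ischemic muscle (horizontal axis; point and standard error) for genes that work beside the proteasome, after anti-miR-210 and after scramble; filled points are called. Class I loading genes stand to the right of 0 apart from Tapbp after scramble, and the shuttles and p97 cofactors Ufd1, Ubqln4, Faf1 and Nsfl1c stand to the left.

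Markers of several cell types moved in the same comparisons as the immune members. Of 12 leukocyte markers, 11 were measured and 10 rose in each response, and their summed log2 level was between 13.78 and 14.54 in anti-miR-210 ischemic muscle, against 9.42 to 9.79 in non-ischemic muscle with anti-miR-210, and between 13.46 and 14.24 in scramble ischemic muscle, against 9.60 to 10.20 in scramble non-ischemic muscle. Lyz2, of macrophages and granulocytes, rose by 5.62 after anti-miR-210 and 4.74 after scramble, and Cd68, of macrophages, by 5.40 and 4.65. The leukocyte marker Ptprc was detected on ischemic arrays alone, so it was tested only through them. Of 10 lymphocyte markers 3 were measured: Lck (0.44) and Nkg7 (0.48) were called higher after anti-miR-210 and were not called after scramble (0.33 and 0.03), and Cd3e was called in neither (0.13 and 0.10). The mean levels of Lck (4.56), Nkg7 (4.42) and Cd3e (4.44) lie near the floor of detection, 4.40 to 4.65 over arrays. Lck and Nkg7 were detected on 0 of 4 anti-miR-210 non-ischemic arrays, so the size of their changes is not known. Their summed level was 6.07 to 6.88 in anti-miR-210 ischemic muscle, against 5.84 to 6.28 in non-ischemic muscle with anti-miR-210, and 6.08 to 6.17 in scramble ischemic muscle, against 5.87 to 6.13 in scramble non-ischemic muscle. All 5 markers of dividing cells were called higher in both responses, among them Mki67 (3.60 after anti-miR-210 and 3.53 after scramble). Their median change was 3.26 after anti-miR-210 and 3.14 after scramble. Mki67, Top2a, Ccnb1 and Cdk1 were detected on all 4 arrays of each ischemic group and on 0 others. They were tested only because ischemic arrays passed the detection filter. Their rise was thus in part set by that filter, and its size is not known. Of 5 endothelial markers 3 rose in each response (Pecam1 by 1.31 and 1.78), and of 5 fibroblast markers 5 rose after anti-miR-210 and 2 after scramble (Col3a1 by 1.57 and 1.95). Of the other endothelial markers, Tek changed by -0.31 after anti-miR-210 and -0.44 after scramble, and Kdr by -0.08 and 0.15. Beside the counts of these marker lists, 26.2% of all names rose after anti-miR-210 and 26.7% after scramble. The summed level of 12 myofibre markers was 16.50 to 16.58 in anti-miR-210 ischemic muscle, against 16.74 to 16.93 in non-ischemic muscle with anti-miR-210. In scramble ischemic muscle it was 16.41 to 16.69, against 16.76 to 16.86 in scramble non-ischemic muscle. That sum rests most on the brightest probes. Of the 12, 1 rose and 5 fell after anti-miR-210, where 24.3% of all names fell. After scramble 1 rose and 6 fell, where 24.5% of all names fell. Myh2 changed by -2.91 after anti-miR-210 and -3.26 after scramble, and Acta1, the riser, by 0.34 and 0.45. With median scaling 0 rose in either response, and 12 fell after anti-miR-210 and 9 after scramble (6842 and 4206 of all 15287 names). The part of these cell types in the change of Psmb8, Psmb9 and Psmb10, or in that of Psmb5 and Psmb7, was not tested. Scramble ischemic arrays were also dimmer before normalization, with a mean signal of 153.9 ± 28.6, against 226.4 ± 16.2 in scramble non-ischemic muscle (SD, n = 4 each), while anti-miR-210 ischemic arrays had 229.5 ± 37.7, against 204.4 ± 24.2 in non-ischemic muscle with anti-miR-210. With that brightness as a covariate the falls of Psmb5 (-0.55, adjusted p = 0.212), Psmb7 (-0.58, adjusted p = 0.141), Psmc1, Psmc3, Psmd6 and Psmd12 after scramble were no longer called, and Psmb8, Psmb9, Psmb10, Psmd11 and Psme4 were.

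The anti-miR-210 oligonucleotide itself was compared with scramble in muscle of the same kind, the question the design sets. In ischemic muscle 0 of the 41 members were called by limma, where 1.09% of all names were called, and 2, Psmb3 (0.32 higher with anti-miR-210) and Psmc1 (0.45 higher), had an unadjusted p under 0.05. In non-ischemic muscle 0 were called, where 0.0196% of all names were called, and 1, Psmd8 (-0.45), had an unadjusted p under 0.05. The difference between the 2 ischemia responses was called for 0 members, where 0.0196% of all names were called, and 1, Psmd6 (-0.80), had an unadjusted p under 0.05. A change that misses the threshold is not shown to be absent, and the intervals leave room for moderate ones.

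Psmb8 had the largest estimate among the members in ischemic muscle, 0.58 higher with anti-miR-210 than with scramble (95% interval -0.03 to 1.19), and the groups overlapped because of the fourth anti-miR-210 array. Without that array the Psmb8 change was 0.95 and was called (limma adjusted p = 0.0126), and with median scaling it was 0.81 (adjusted p = 0.0434). Both settings called many more names of all kinds. Of all 15287 names, 514 were called higher and 723 lower without that array, and 980 and 2983 with median scaling. The main fit called 37 higher and 129 lower. In non-ischemic muscle Psmb8 was -0.23 (95% interval -0.83 to 0.38). The difference of its 2 ischemia responses was 0.80 (unadjusted p = 0.0659 and adjusted p = 0.632 in limma). For Psmb9 the interval ran from -0.28 to 0.59 in ischemic and from -0.55 to 0.32 in non-ischemic muscle, and for Psmb10 from -0.31 to 0.59 and from -0.44 to 0.47. Median scaling also called Psmb3 (0.56) and Psmc1 (0.73) higher with anti-miR-210 in ischemic muscle. Of the pair ratios, Psmb8 to Psmb5 was 0.65 lower in anti-miR-210 than in scramble non-ischemic muscle (SD 0.34 and 0.35, n = 4 each), with no overlap (exact permutation p = 0.0286, the smallest possible, adjusted p = 0.049). The adjusted p of that exact test was 0.0571 with cyclic loess (-0.63), without background correction (-0.40) and in the authors' values (-0.44). The other 5 ratio comparisons between oligonucleotides had exact permutation p from 0.286 to 0.971.

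**Figure D5:**
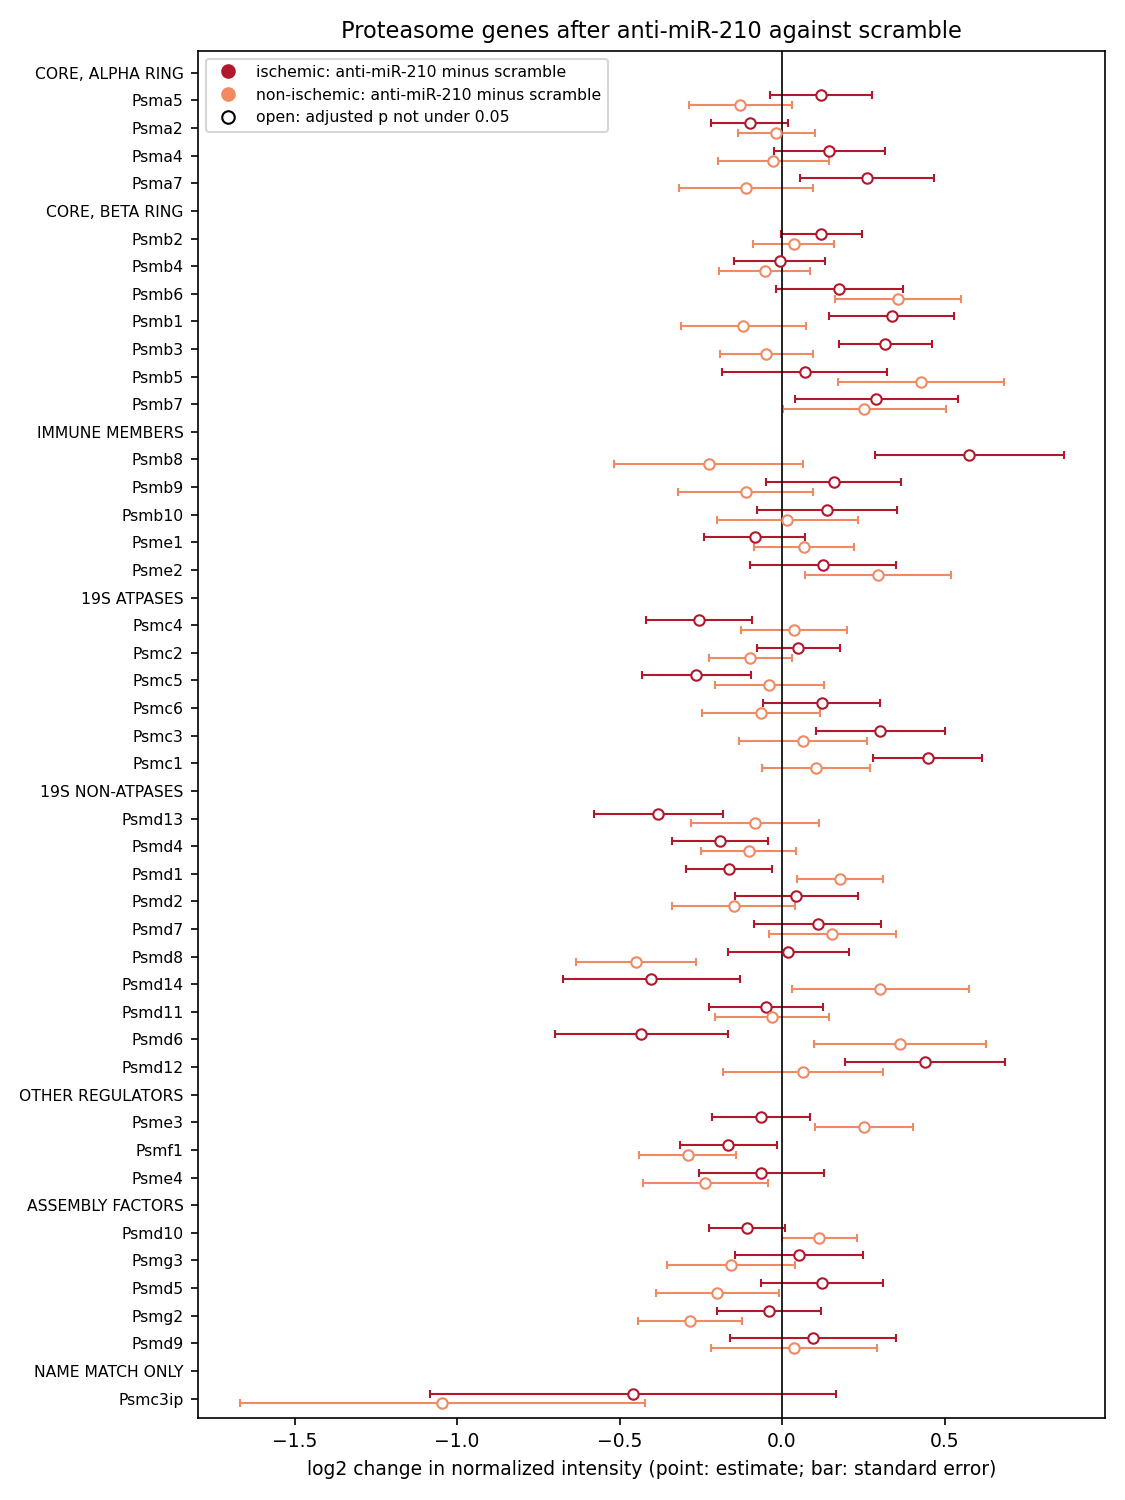
Log2 change with anti-miR-210 against scramble (horizontal axis; point and standard error) for the 41 tested members, in ischemic and in non-ischemic muscle. All points are open, since 0 members were called in either comparison; the Psmb8 estimate in ischemic muscle is 0.58.

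Scramble non-ischemic muscle was set against untreated muscle to see what injection and surgery on the mouse go with, and 0 members were called by limma, where 2.81% of all names were called. The 2 members with an unadjusted p under 0.05 were both immune members and both lower with scramble. Psmb8 had 5.96, 5.56, 5.28 and 5.36 in scramble non-ischemic muscle, against 6.45, 6.76 and 6.67 in untreated muscle, and Psme1 had 9.22, 9.16, 9.02 and 9.02, against 9.57, 9.72 and 9.79. The groups did not overlap for either gene, with log2 changes of -1.09 ± 0.31 for Psmb8 (95% interval -1.75 to -0.43, adjusted p = 0.0729) and -0.59 ± 0.17 for Psme1 (-0.94 to -0.24, adjusted p = 0.0663). Both were called with cyclic loess normalization (adjusted p = 0.0415 and 0.0141). Untreated arrays carried liver transcripts: the summed level of 8 measured liver markers was 7.39 to 11.57 in scramble non-ischemic muscle, against 12.12 to 15.49 in untreated muscle. Without untreated replicates 2 and 3 and scramble non-ischemic replicate 1, the arrays of each group with the most of these transcripts, the changes were -1.05 for Psmb8 and -0.51 for Psme1. That leaves 1 untreated array, itself at 12.12, whose spread is assumed to be that of the other groups, so its lack of a call (adjusted p = 0.755 and 0.856) says little. The second Psmb8 probe gave 0.18 in this comparison, and the mean of both probes -0.45 (adjusted p = 0.278). The untreated levels of Psmb8 lay between those of scramble non-ischemic muscle and most of those of ischemic muscle. Leukocyte markers summed to 9.60 to 10.20 in scramble non-ischemic muscle, against 10.06 to 10.63 in untreated muscle, and their part was not tested.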

How the data were processed

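The authors deposited, per the file headers, for each of 45281 probes on 19 Illumina arrays, a mean intensity over beads, not normalized, with a p-value of detection. A second deposited table holds the authors' normalized intensity values; the sources used here do not name its method, and it served as an alternative. Per the labels' protocols, RNA was extracted with Trizol. The probes detected numbered 32.1% to 42.3% per array, and the number of arrays limits precision. Background was corrected and arrays were quantile normalized with neqc (limma 3.58.1, R 4.3.3; offset 16). Probes detected on at least 3 arrays were kept (21083), the brightest per name was used, and limma with 1 mean per group and Benjamini-Hochberg adjustment over 15287 names gave the tests; the fit was tested on simulated data. Ratios had exact two-sided permutation tests. Alternatives covered normalization, background, filters, probe choice, samples in the fit, brightness, a replicate block and leaving out arrays. Per-array values are given for the immune members, Psmb5, Psmb6, Psmb7 and the highest and lowest member of each role in ischemia after scramble, and up to 4 genes are named per pathway list, by smallest adjusted p in ischemia after scramble. Members and lists were chosen with earlier results of these data known. One gene of a pathway list is not reported here and was left out of that list's counts. No batch is labelled. Promoter windows are from RefSeq and cover 39 of the 47 members.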

Additional observations from a re-analysis of the deposited data

Results flagged for a closer look

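Of 164 sets of 4 arrays (41 members in 4 groups), 9 held an array whose gap to the others passed Dixon's critical value, and chance flags about 1 in 20 sets. There were 4 in scramble ischemic muscle: Psmb6 in replicate 1 (11.67, the others 10.67 to 10.79), Psmd13 in replicate 3 (12.60, the others 11.70 to 11.75), Psmd5 in replicate 1 (5.04, the others 4.48 to 4.55) and Psmc3ip in replicate 3 (6.36, the others 7.34 to 7.5). Another 3 were in scramble non-ischemic muscle: Psma7 in replicate 2 (10.66, the others 10.30 to 10.36), Psmd2 in replicate 4 (5.32, the others 4.39 to 4.47) and Psmc3ip in replicate 3 (6.45, the others 8.40 to 8.45). Psmc4 in anti-miR-210 ischemic replicate 4 was 11.53 (the others 11.02 to 11.05), and Psmg2 in anti-miR-210 non-ischemic replicate 1 was 8.06 (the others 8.35 to 8.38).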

How the results depend on the processing

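Of the 20 member calls after scramble 4 held under all 18 alternatives, and of the 18 after anti-miR-210 12 did; brightness as a covariate and median scaling took most of the others, and the cause was not tested. With median scaling 6 members were called higher and 18 lower after anti-miR-210, where 3163 and 6842 of all 15287 names were. After scramble it called 2 higher and 22 lower, where 2993 and 4206 of all names were. The median of the constitutive subunits was -0.56 after anti-miR-210, where it reversed while the median of all names was -0.39. After scramble it was -0.99, and that of the immune members 0.34, while the median of all names was 0.04. Median scaling also called 3 members higher with anti-miR-210 in ischemic muscle, where it called 980 of all names higher. It called 1 lower with scramble non-ischemic against untreated (267 of all names), as did a fit of the compared groups alone (34 of all names). Cyclic loess called 2 lower there (330 of all names) and 16 higher in ischemia after anti-miR-210 (4308 of all names). Brightness as a covariate left 2 lower after scramble, where 2541 of all names were lower, with a constitutive median of -0.0215. Leaving out 1 array gave 0 to 1 higher for anti-miR-210 in ischemic muscle. The 1 came without anti-miR-210 ischemic replicate 4, where 514 of all names were called higher.

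Median scaling turned the sign of these values: Psma2 (-0.61), Psma4 (-0.80), Psmb2 (-0.67), Psmb4 (-0.77), Psmc4 (-0.11), Psmd1 (-0.40), Psmd4 (-0.32) and Psme1 (-0.25) after scramble, and Psmb3 (-0.56), Psmc2 (-0.56), Psmc4 (-0.12), Psmd1 (-0.46) and Psmd4 (-0.16) after anti-miR-210. Relative to the shift of all names (-0.39), Psmc4 (0.28) and Psmd4 (0.23) were higher after anti-miR-210, and Psmb3 (-0.16), Psmc2 (-0.17) and Psmd1 (-0.07) lower. Psma5 (0.41) and Psmd13 (0.40), whose calls after anti-miR-210 median scaling removed, were also higher relative to that shift. The mean of a name's probes turned Psmd1 (-0.12) and Psmd10 (-0.00899) after scramble, and Psmc2 (-0.65) and Psmg2 (-0.67) after anti-miR-210.

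For the ratios, cyclic loess, no background correction and the authors' values gave 3.42, 2.08 and 2.30 for Psmb8 to Psmb5 after anti-miR-210, and 2.14, 1.28 and 1.45 after scramble. They gave 1.92, 1.21 and 1.34 for Psmb9 to Psmb6 after anti-miR-210, and 1.23, 0.89 and 1.00 after scramble. They gave 1.99, 1.91 and 1.90 for Psmb10 to Psmb7 after anti-miR-210, and 1.80, 1.82 and 1.81 after scramble. For Psmb8 to Psmb5 with anti-miR-210 against scramble in non-ischemic muscle they gave -0.63, -0.40 and -0.44. The adjusted p of these exact permutation tests was 0.0571 to 0.147, above the 0.05 threshold in each case.

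Deviations of same-numbered ischemic and non-ischemic arrays correlated between 0.09 and 0.233 after anti-miR-210 and between 0.052 and 0.167 after scramble. All 8 were positive, but not every pair passed 0.1 in either, so the numbers were not taken to pair the arrays. Over the other group pairs the range was -0.379 to 0.299. The fit with a replicate block called 10 members higher and 8 lower after anti-miR-210, where 3967 and 3701 of all names were. After scramble that fit called 13 members higher and 7 lower, where 4059 and 3732 of all names were. In that block the pair ratios kept their values, and sign-flip tests cannot go below 0.125 (exact). Over all names, 166 were called for anti-miR-210 in ischemic muscle; this was 1 with that comparison's groups alone or with brightness as a covariate, 3963 with median scaling, and 14 to 1237 leaving out 1 array. Against untreated muscle 430 were called, and 102 to 695 under the alternatives without leaving out 1 array. The few names called for anti-miR-210 in non-ischemic muscle (3) numbered 0 to 6, and for the difference of the responses (3) 0 to 749. Signals near the detection floor, as for Psmc6, Psmd2, Psmd5 and Psmd9, limit what could be seen for those members.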
